A study of Mus musculus with 8 samples.

Results

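The 41 genes described here are mitosis genes, chosen by their symbols as a panel of cyclins, kinases, checkpoint proteins, kinetochore proteins, kinesins, spindle proteins and cytokinesis factors. Only probe sets with a single symbol in the platform annotation were used, and 40 of these 41 genes had one. All 40 lay above the limit for dim probe sets and were tested among 12976 genes. Ccnb1 had no probe set with its symbol alone, so its signal was not analysed here, only its promoter. Where several probe sets carried a symbol, the one of highest average log2(signal + 16) across the 8 arrays stood for the gene. The rule used symbols and this average, not a change between groups, but the panel was chosen with earlier results of these data known.

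Subcutaneous tumours grown from MOPC cells, a mouse oropharyngeal carcinoma line, were taken from C57BL/6 wild type (WT) mice and from mice lacking Tlr3, Tlr7 and Tlr9 (Tlr3/7/9-/-, here KO) at day 4 and at day 6 after injection. RNA of the tumour tissue was measured on Affymetrix arrays, with 2 arrays in each of the 4 groups of genotype and day. Genotype here refers to the host, while the injected tumour cells came from 1 line in all groups. The labels give neither the age nor the sex of the hosts, and the paper describes separate mice for day 6 alone. The error behind each p-value of limma starts from that between the 2 arrays of a group, pooled over the 4 groups. It may therefore not be that between mice. For each gene limma then draws this error towards a trend of spread on mean signal, fitted over all tested genes. In whole tumours, fewer cells of a type and less RNA per cell cannot be told apart.

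Dividing cells build up the products of these genes in G2 and mitosis and destroy many of them as they leave mitosis, so their RNA is a common measure of how many cells of a tissue are cycling. Cyclins with the kinase Cdk1 start mitosis, the checkpoint kinases hold it until each chromosome is attached to the spindle, and the anaphase promoting complex (APC/C) then marks securin and cyclins for destruction. Many of the genes share promoter elements. A CCAAT box is bound by NF-Y, and the cell cycle genes homology region (CHR) is bound by MuvB complexes, which repress the genes in resting cells and, with B-MYB and FOXM1, take part in their activation in G2.

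The promoters of 35 of the 41 genes were found in a RefSeq table of the assembly GRCm38.p6, which holds 250 bases before and 50 bases after each annotated start. Those of Kif20a, Ccna2, Aurkb, Cdc25c, Foxm1 and Tpx2 were not matched. The letters TTTGAA (CHR) and CCAAT (NF-Y box) were searched on both strands, and neither motif contains the other, although neighbouring matches can share end letters. A CHR was present in 27 of the 35 genes and in 17.9% of all 32851 promoters of the table. An NF-Y box was also present in 27 of the 35 genes, against 37.4% of all promoters. Both motifs occurred together in 24 of the 35 genes and in 6.95% of all promoters. The genes were chosen as mitosis genes, which are known for these elements, so this is a description of the promoters.

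The following stretches of 150 bases show the arrangement in 6 genes of entry, anaphase, centromere and chromosome structure, read 5′ to 3′ along the gene. Capitals mark a CHR (TTTGAA, or TTCAAA on the other strand) or an NF-Y box (CCAAT, or ATTGG on the other strand). Ccnb2 lies at chr9:70421545-70421694 on the minus strand, Cdk1 at chr10:69352913-69353062 on the minus strand and Ube2c at chr2:164769779-164769928 on the plus strand. Cdc20 lies at chr4:118437344-118437493 on the minus strand, Cenpa at chr5:30666758-30666907 on the plus strand and Top2a at chr11:99024190-99024339 on the minus strand.
Ccnb2: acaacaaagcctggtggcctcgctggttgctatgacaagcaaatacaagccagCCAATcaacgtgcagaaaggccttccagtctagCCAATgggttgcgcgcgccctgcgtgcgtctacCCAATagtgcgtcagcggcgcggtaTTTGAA
Cdk1: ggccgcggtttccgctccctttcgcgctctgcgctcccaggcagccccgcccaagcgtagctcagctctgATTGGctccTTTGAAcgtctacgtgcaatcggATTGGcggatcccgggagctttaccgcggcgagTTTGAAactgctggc
Ube2c: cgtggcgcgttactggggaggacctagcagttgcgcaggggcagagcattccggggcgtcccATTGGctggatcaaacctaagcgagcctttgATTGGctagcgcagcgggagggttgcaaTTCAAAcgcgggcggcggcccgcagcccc
Cdc20: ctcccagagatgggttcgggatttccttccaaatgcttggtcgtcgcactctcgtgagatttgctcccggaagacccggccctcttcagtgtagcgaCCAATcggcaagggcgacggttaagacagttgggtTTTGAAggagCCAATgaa
Cenpa: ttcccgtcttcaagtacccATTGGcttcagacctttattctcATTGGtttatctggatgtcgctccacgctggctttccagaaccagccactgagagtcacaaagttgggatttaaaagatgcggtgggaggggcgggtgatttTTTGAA
Top2a: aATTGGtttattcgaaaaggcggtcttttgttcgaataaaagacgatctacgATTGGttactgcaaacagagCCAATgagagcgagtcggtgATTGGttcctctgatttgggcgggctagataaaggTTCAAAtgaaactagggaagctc

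In Ccnb2, 3 NF-Y boxes stood before a CHR whose first base was base 5 after the start. In Cdk1, a CHR began 15 bases before the start, and its whole promoter window held 3 NF-Y boxes. Over all promoters, 67 of the 69 NF-Y boxes lay before the annotated start, and 25 of the 27 genes with a CHR had one within 50 bases of the start. Ect2 and Prc1 have 2 promoters each, so the same boxes of these genes were counted once per promoter. The genes with the largest and the smallest change from day 4 to day 6 in WT, Birc5 and Pttg1, are shown next, since neither motif was found in their windows. Birc5 lies at chr11:117849087-117849236 on the plus strand and Pttg1 at chr11:43425982-43426131 on the minus strand.
Birc5: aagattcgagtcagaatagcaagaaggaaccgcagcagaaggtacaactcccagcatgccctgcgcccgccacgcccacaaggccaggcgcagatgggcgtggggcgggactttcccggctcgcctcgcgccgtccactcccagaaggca
Pttg1: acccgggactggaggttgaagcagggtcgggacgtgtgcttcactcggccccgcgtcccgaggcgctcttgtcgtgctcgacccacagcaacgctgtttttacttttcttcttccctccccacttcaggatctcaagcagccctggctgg

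That these letters are not in a window says nothing about binding of the factors. Apart from Birc5 and Pttg1, neither motif was found for Mad2l1, Nuf2 and Nusap1.

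**Figure D1:**
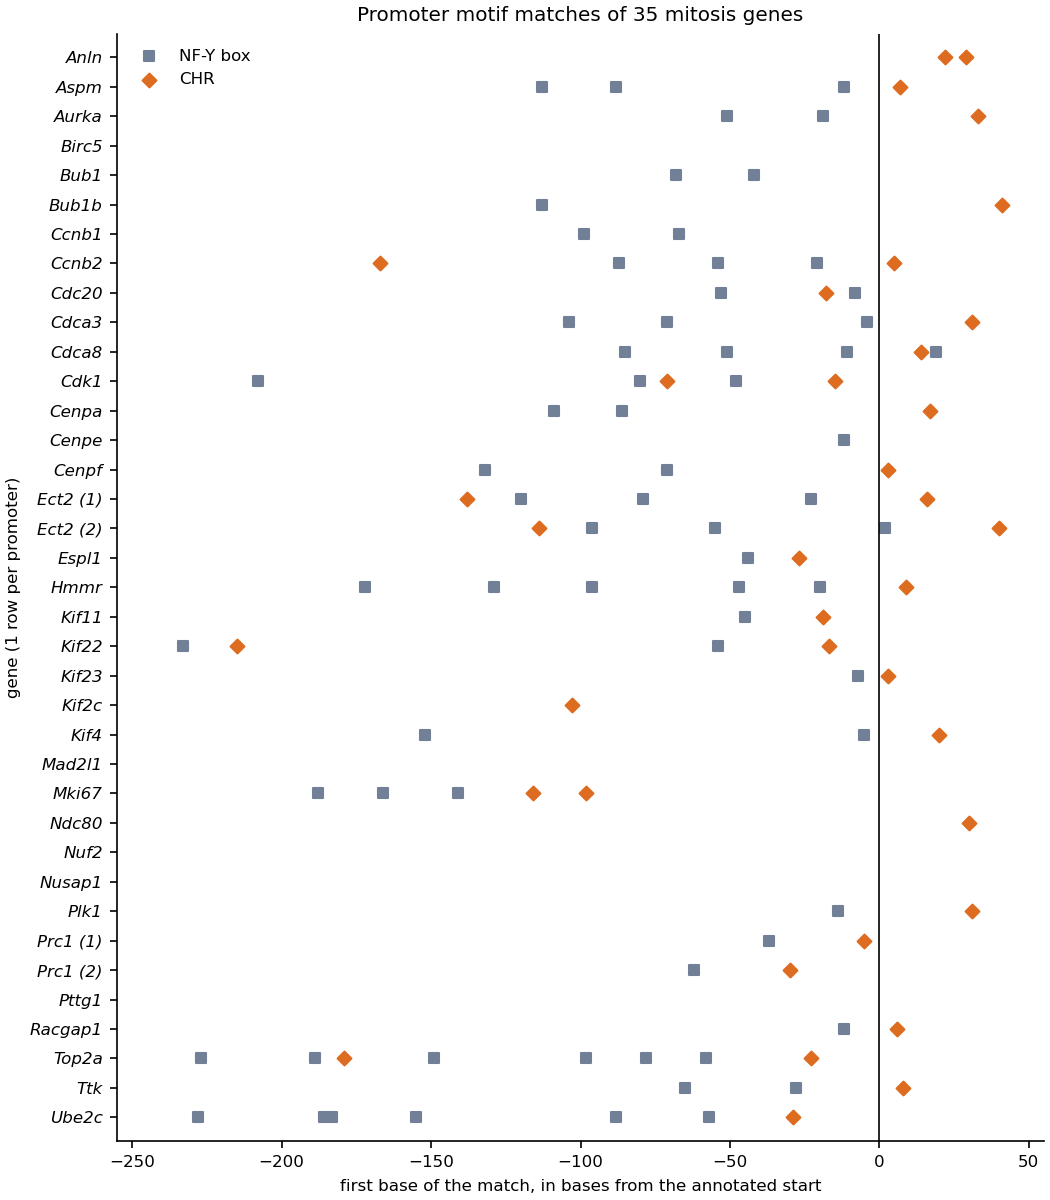
Positions of the motif matches in the promoters of 35 mitosis genes, with the distance of the first base of each match from the annotated start in bases on the x axis and 1 row per promoter. Grey squares are NF-Y boxes and orange diamonds are CHR matches. Most NF-Y boxes lie before the start (67 of 69, those of Ect2 and Prc1 counted in each of 2 promoters) and most CHR matches near it.

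Day 6 tumours had higher signals of nearly all mitosis genes than day 4 tumours in both genotypes. In WT hosts, 39 of 40 genes had the higher mean at day 6, with a median log2 fold change of 1.30 (2.46-fold), and 28 rose in limma's test at a Benjamini-Hochberg adjusted p under 0.05 over all genes. In KO hosts, 39 of 40 were likewise higher, with a median of 0.95 (1.94-fold), and 14 rose. The medians over all 12976 genes were 0.01 in WT and -0.000334 in KO. Of all genes tested, 4.16% rose in WT and 3.71% in KO. The limma fit shared 1 estimate of the spread over the 4 groups, so 28 and 14 do not rank the genotypes. The methods' t-test was run on linear signals, not on the log2 scale of limma, and with the spread of the 2 compared groups alone. It had 2 of 40 genes at an unadjusted p under 0.05 in WT. That was against 10.2% of all genes, and in KO it had 32 of 40, against 20%, with 0 passing after adjustment in either genotype. Fold changes are on the scale of log2(signal + 16), so changes at low signal are understated.

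Both day 6 arrays lay above both day 4 arrays for 39 of 40 genes in WT, against 29.1% of all genes, and for 38 of 40 in KO, against 30.7%. For 35 of 40 genes all 4 day 6 arrays lay above all 4 day 4 arrays, which held for 15.7% of all genes. The exceptions were Pttg1, Espl1, Ndc80, Kif2c and Kif22. In both genotypes 13 genes rose, and 11 passed in neither. The matching shares of all genes were not counted, so 13 and 11 describe the panel alone.

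These counts rest on few arrays. The count of 28 in WT fell when WT day 6 replicate 1, WT day 4 replicate 1 or any 1 KO array was left out. The count of 14 in KO fell when any 1 KO array was left out. In each of these cases the count over all genes in either direction fell too, so the loss was not confined to the mitosis genes. The KO count rose when either WT day 4 array was left out, as did that over all genes. Fits without 1 array gave medians of 0.99 to 1.61 in WT and 0.886 to 0.996 in KO. The number of genes with the higher mean at day 6 stayed between 38 and 40 in each of these fits.

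**Figure D2:**
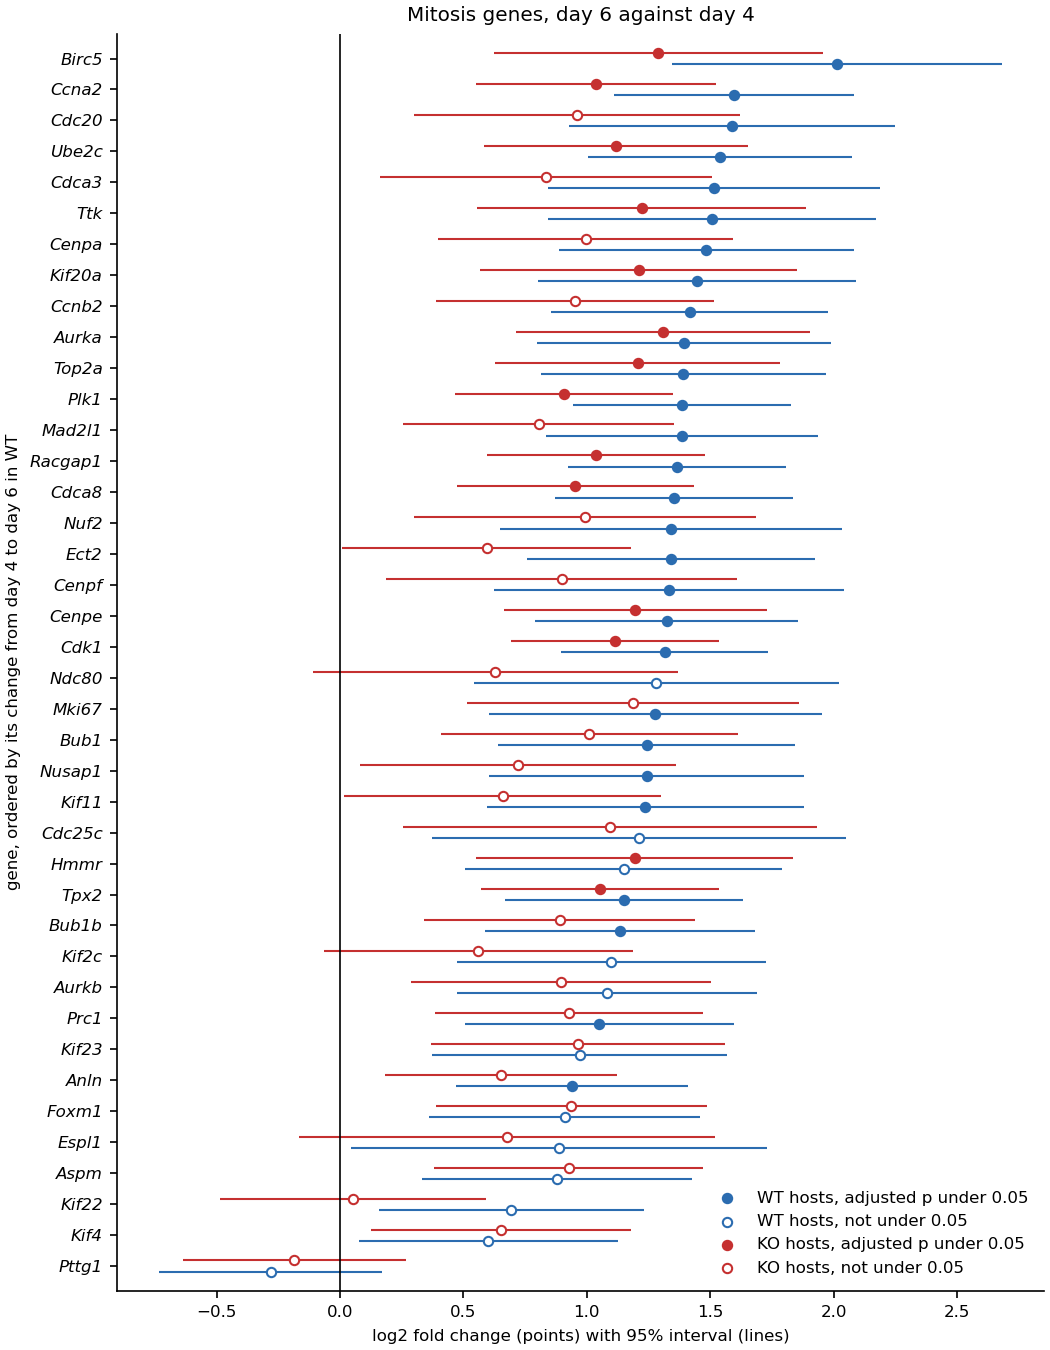
Log2 fold change (x axis) of the 40 mitosis genes from day 4 to day 6, in WT hosts (blue) and KO hosts (red), with lines for the 95% interval of limma. Filled points passed at an adjusted p under 0.05, 28 in WT and 14 in KO. Pttg1, at the bottom, is the only gene with points below 0 in both genotypes.

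Among the genes of mitotic entry, 3 of 5 measured genes rose in WT and 2 of 5 in KO. Ccna2, encoding cyclin A2, the partner of Cdk1 and Cdk2 from S phase to early mitosis, had signals of 1524 and 2318 in WT day 4, 3310 and 3114 in KO day 4, 6739 and 4856 in WT day 6 and 6705 and 6502 in KO day 6. The genotypes did not overlap at day 4, while at day 6 both KO arrays lay between the 2 WT arrays. It rose by a log2 of 1.60 in WT (standard error 0.21, adjusted p = 0.0169 from limma) and 1.04 in KO (standard error 0.21, adjusted p = 0.0345). Cdk1, the kinase that drives entry into mitosis, had signals of 2178 and 2691 in WT day 4, 3491 and 2917 in KO day 4, 7104 and 5150 in WT day 6 and 6540 and 7331 in KO day 6. Every day 6 array was above every day 4 array. Cdk1 rose by 1.32 in WT (standard error 0.18, adjusted p = 0.0169 from limma) and by 1.11 in KO (standard error 0.18, adjusted p = 0.0222). Ccnb2, encoding cyclin B2, rose by 1.42 in WT (adjusted p = 0.0232 from limma) and had a log2 fold change of 0.95 in KO (adjusted p = 0.0571). Cdc25c, a phosphatase that activates Cdk1, and Foxm1, a transcription factor of the G2 genes, did not pass in either genotype, with log2 fold changes of 1.21 and 0.91 in WT and 1.09 and 0.94 in KO.

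All 6 mitotic kinases and checkpoint proteins rose in WT, and 3 of them, Plk1, Aurka and Ttk, in KO. Plk1, a kinase of mitotic entry and spindle assembly, had signals of 844.8 and 949.7 in WT day 4, 1533 and 1490 in KO day 4, 2928 and 1911 in WT day 6 and 2770 and 2925 in KO day 6. The day 4 groups stood apart, and the day 6 groups overlapped. Its log2 fold change was 1.39 in WT (standard error 0.19, adjusted p = 0.0169 from limma) and 0.91 in KO (standard error 0.19, adjusted p = 0.0363). Aurka, the Aurora kinase of the spindle poles, had 557.3 and 783.9 in WT day 4, 893.5 and 858.6 in KO day 4, 2325 and 1337 in WT day 6 and 2067 and 2323 in KO day 6. It showed the largest change of the panel in KO, a log2 of 1.31 (standard error 0.26, adjusted p = 0.0334 from limma). Mad2l1, which encodes the checkpoint protein Mad2, had 1834 and 2595 in WT day 4, 4171 and 3598 in KO day 4, 7280 and 4494 in WT day 6 and 7222 and 6361 in KO day 6. Bub1, a checkpoint kinase at the kinetochore, had 794.2 and 1219 in WT day 4, 1720 and 1438 in KO day 4, 3020 and 1831 in WT day 6 and 3126 and 3246 in KO day 6. For both genes the lowest array was WT day 4 replicate 1, and all day 6 arrays lay above all day 4 arrays. Mad2l1 rose by 1.38 and Bub1 by 1.24 in WT (adjusted p = 0.0234 and 0.0344 from limma), and neither passed in KO, at 0.80 and 1.01. Bub1b, encoding the checkpoint protein BubR1, and Ttk, the kinase that starts checkpoint signalling, rose by 1.14 and 1.51 in WT, and Ttk by 1.22 in KO.

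Of the chromosomal passenger complex, which corrects faulty attachments and later marks the division plane, Birc5 and Cdca8 rose in both genotypes. Birc5, encoding survivin, had signals of 901.7 and 1475 in WT day 4, 2401 and 2167 in KO day 4, 6345 and 3494 in WT day 6 and 5545 and 5648 in KO day 6. The day 4 groups did not overlap, and the 2 WT arrays of day 6 lay on either side of the KO arrays. Its change of 2.01 in WT (4.04-fold, standard error 0.29, adjusted p = 0.0169 from limma) was the largest of the panel, and in KO it was 1.29 (2.44-fold, adjusted p = 0.0416). Cdca8, encoding borealin, had 973.4 and 1321 in WT day 4, 1927 and 1618 in KO day 4, 3521 and 2426 in WT day 6 and 3390 and 3480 in KO day 6. It rose by 1.35 in WT (adjusted p = 0.0182 from limma) and 0.95 in KO (adjusted p = 0.0388). Aurkb, the kinase of the complex, had 1.08 in WT (adjusted p = 0.0521 from limma) and 0.89 in KO (adjusted p = 0.0797).

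Of the 5 genes of anaphase onset and protein destruction, 3 rose in WT and 1 in KO. Ube2c, the enzyme that hands ubiquitin to the APC/C, had signals of 2810 and 3545 in WT day 4, 5365 and 4831 in KO day 4, 12086 and 7001 in WT day 6 and 10671 and 11472 in KO day 6. It rose by 1.54 in WT (adjusted p = 0.0179 from limma) and 1.12 in KO (adjusted p = 0.0352). Cdc20, the activator of the APC/C at anaphase, and Cdca3, a trigger of mitotic entry, rose by 1.59 and 1.51 in WT and did not pass in KO, at 0.96 and 0.83. Espl1, encoding separase, the protease that cuts cohesin, had 0.89 in WT and 0.68 in KO and did not pass.

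Pttg1 stood apart from the panel. It encodes securin, which holds separase inactive until the APC/C destroys it, and had signals of 10626 and 7181 in WT day 4, 9071 and 8386 in KO day 4, 6270 and 8241 in WT day 6 and 7349 and 8003 in KO day 6. The WT groups overlapped, and in KO both day 6 arrays lay below both day 4 arrays. Its log2 fold change was -0.28 in WT (95% interval -0.73 to 0.17, adjusted p = 0.415 from limma) and -0.19 in KO (95% interval -0.64 to 0.27, adjusted p = 0.59). The other 2 probe sets of Pttg1 had -0.17 and -0.53 in WT and -0.27 and -0.44 in KO. Without WT day 4 replicate 1, the array with its highest signal, the change of Pttg1 in WT was 0.00158.

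**Figure D3:**
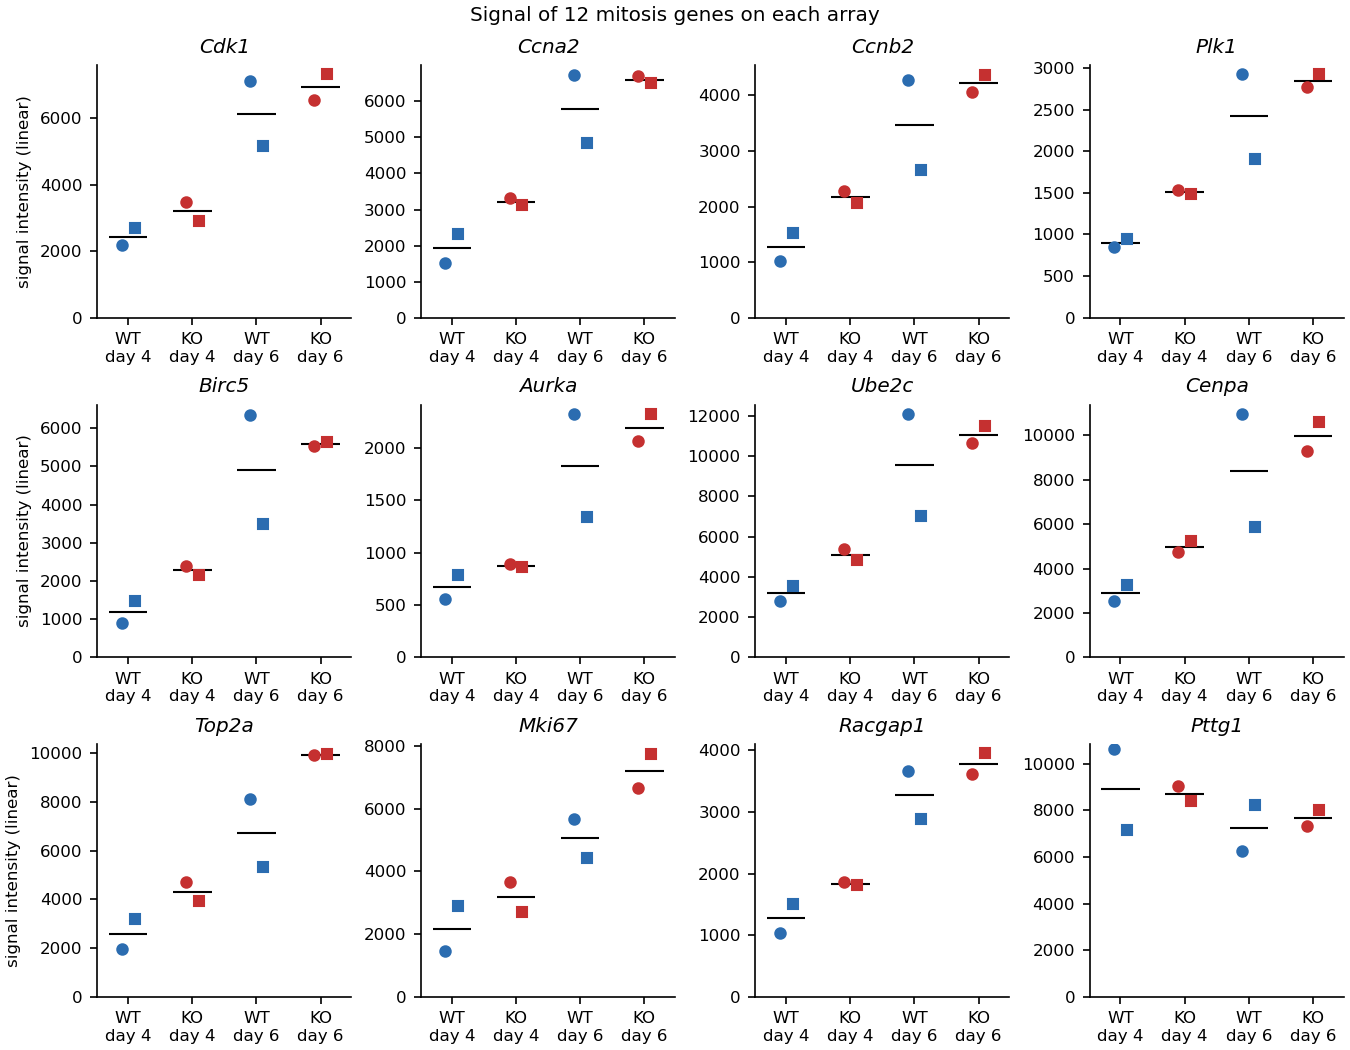
Linear signal intensity (y axis) of 12 mitosis genes on each array, by genotype and day (x axis), with circles for replicate 1, squares for replicate 2 and a bar for the group mean. For 11 of the genes every day 6 array lies above every day 4 array, and Pttg1 is the exception.

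Of the centromere and kinetochore genes, 4 of 5 rose in WT and Cenpe alone in KO. Cenpa, the histone variant that marks centromeres, had signals of 2519 and 3241 in WT day 4, 4744 and 5225 in KO day 4, 10962 and 5875 in WT day 6 and 9315 and 10611 in KO day 6. It rose by 1.48 in WT (adjusted p = 0.0234 from limma) and did not pass in KO (adjusted p = 0.0595). Cenpe, a kinesin of the kinetochore, had 428.5 and 564.5 in WT day 4, 818.3 and 649.7 in KO day 4, 1548 and 1018 in WT day 6 and 1628 and 1757 in KO day 6. At each day both KO arrays lay above both WT arrays. Cenpe rose by 1.32 in WT (adjusted p = 0.0234 from limma) and by 1.20 in KO (adjusted p = 0.0319). Cenpf, a large protein of the outer kinetochore, had 550.8 and 1019 in WT day 4, 1415 and 1093 in KO day 4, 2444 and 1497 in WT day 6 and 2250 and 2418 in KO day 6. Ndc80, which couples kinetochores to microtubules, had 205.6 and 269.4 in WT day 4, 604.6 and 386.8 in KO day 4, 811.9 and 434.9 in WT day 6 and 718.6 and 798.3 in KO day 6. The high KO day 4 array of Ndc80 lay above the lower WT day 6 array. Cenpf and Nuf2, the partner of Ndc80, rose by 1.33 and 1.34 in WT, and Ndc80 did not pass in either genotype, at 1.28 and 0.63.

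Of the 6 kinesins, Kif11 and Kif20a rose in WT and Kif20a in KO, and all 6 had the higher mean at day 6 in both genotypes. Kif11, the motor that pushes spindle poles apart, had signals of 366.5 and 659.6 in WT day 4, 623.1 and 739.8 in KO day 4, 1404 and 993.8 in WT day 6 and 1012 and 1157 in KO day 6. Kif23, a motor of the central spindle, had 752.8 and 1227 in WT day 4, 1245 and 1278 in KO day 4, 2375 and 1520 in WT day 6 and 2331 and 2629 in KO day 6. Kif4, a chromokinesin, had 392.3 and 565.5 in WT day 4, 394.6 and 550.9 in KO day 4, 706.2 and 738.9 in WT day 6 and 709.8 and 776.1 in KO day 6. For Kif4 the genotypes overlapped at each day while the days did not overlap. Kif11 rose by 1.24 and Kif20a, which carries the passenger complex to the midzone, by 1.45 in WT, and Kif20a by 1.21 in KO. Kif23 had 0.97 and 0.96 in WT and KO, Kif4 0.60 and 0.65, and Kif2c, a microtubule depolymerase, 1.10 and 0.56, none of which passed.

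Kif22, a chromokinesin that pushes chromosome arms outwards, was read differently by its probe sets. Its brightest probe set had signals of 2623 and 4237 in WT day 4, 4867 and 6077 in KO day 4, 5689 and 5137 in WT day 6 and 6504 and 4891 in KO day 6, and its KO groups overlapped. The log2 fold change was 0.69 in WT and 0.05 in KO (95% interval -0.49 to 0.59). Its other 2 probe sets gave larger values, up to 1.52 in WT, and 0.79 and 1.02 in KO. The sign of the small KO value also turned without KO day 6 replicate 1 (-0.15) and without KO day 4 replicate 1 (-0.11).

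Of the spindle proteins, 3 of 5 rose in WT and 2 of 5 in KO. Tpx2, which activates Aurka on the spindle, had signals of 743.7 and 968.7 in WT day 4, 1154 and 1180 in KO day 4, 2353 and 1538 in WT day 6 and 2435 and 2441 in KO day 6. It rose by 1.15 in WT (adjusted p = 0.0242 from limma) and 1.05 in KO (adjusted p = 0.0334). Nusap1, a microtubule protein near the chromosomes, had 870.7 and 1515 in WT day 4, 1744 and 1744 in KO day 4, 3441 and 2181 in WT day 6 and 3138 and 2654 in KO day 6. Prc1, which bundles microtubules in the midzone, had 1036 and 1598 in WT day 4, 2037 and 1728 in KO day 4, 3260 and 2210 in WT day 6 and 3485 and 3684 in KO day 6. Nusap1 and Prc1 rose by 1.24 and 1.05 in WT and did not pass in KO, at 0.72 and 0.93. Hmmr, a spindle protein and hyaluronan receptor, rose by 1.19 in KO (adjusted p = 0.0458 from limma) and had 1.15 in WT, which did not pass (adjusted p = 0.0516). Its other 3 probe sets above the limit gave lower values in KO, 0.07, 0.20 and 0.33, and 0.70, 1.19 and 1.33 in WT. With the mean of its probe sets the change in KO was 0.33 and did not pass. Aspm, a protein of the spindle poles, had 0.88 in WT and 0.93 in KO and did not pass.

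Both genes of chromosome structure rose in WT. Top2a, the topoisomerase that untangles sister chromatids, had signals of 1961 and 3175 in WT day 4, 4692 and 3937 in KO day 4, 8123 and 5313 in WT day 6 and 9912 and 9961 in KO day 6. Its groups were in one order at both days, with both KO arrays above both WT arrays. It rose by 1.39 in WT (adjusted p = 0.0239 from limma) and 1.21 in KO (adjusted p = 0.0352). Its other probe set above the limit had -0.41 and 0.11, and the mean of its probe sets had 0.20 in WT and 0.39 in KO, neither of which passed. Mki67, encoding the proliferation marker Ki-67 that coats mitotic chromosomes, had 1471 and 2881 in WT day 4, 3668 and 2697 in KO day 4, 5670 and 4436 in WT day 6 and 6667 and 7738 in KO day 6. It rose by 1.28 in WT (adjusted p = 0.0433 from limma) and had 1.19 in KO (adjusted p = 0.0518).

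All 3 cytokinesis genes rose in WT, and Racgap1 in KO. Racgap1, a subunit of the central spindle complex with Kif23, had signals of 1035 and 1513 in WT day 4, 1861 and 1810 in KO day 4, 3666 and 2881 in WT day 6 and 3619 and 3953 in KO day 6. It rose by 1.36 in WT (standard error 0.19, adjusted p = 0.0169 from limma) and 1.04 in KO (standard error 0.19, adjusted p = 0.0272). Anln, the scaffold of the contractile ring, had 3805 and 6234 in WT day 4, 7310 and 7181 in KO day 4, 10084 and 8685 in WT day 6 and 11037 and 11758 in KO day 6. Ect2, which activates RhoA at the division plane, had 1106 and 1754 in WT day 4, 2464 and 2627 in KO day 4, 4493 and 2810 in WT day 6 and 4005 and 3696 in KO day 6. Anln and Ect2 rose by 0.94 and 1.34 in WT and did not pass in KO, at 0.65 and 0.59.

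Between genotypes, the mitosis genes had higher means in KO than in WT tumours at day 4, but no single gene passed. At day 4, 38 of 40 genes had the higher mean in KO, with a median log2 fold change of 0.60 (1.52-fold), against a median of 0.01 over all genes. In limma's test with Benjamini-Hochberg adjustment 0 of 40 passed, as did 0.00771% of all genes upwards, and 0 passed in the methods' t-test after adjustment. At an unadjusted p under 0.05 there were 22 of 40 genes higher in KO in limma's test, against 3.85% of all genes, while the methods' t-test had 2 of 40 in either direction, against 6.43% of all genes. Both KO arrays lay above both WT arrays for 30 of 40 genes, against 19.6% of all genes.

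The gene with the smallest p at day 4 was Plk1, with a log2 fold change of 0.74 (95% interval 0.30 to 1.19, adjusted p = 0.466 from limma). Ndc80 had the largest change, 0.99 (95% interval 0.25 to 1.73, adjusted p = 0.58), and Kif4 the lowest, -0.01 (95% interval -0.54 to 0.51, adjusted p = 0.997 from limma). Birc5 had 0.97, Ect2 0.86, Mad2l1 0.82 and Ccna2 0.77, with adjusted p from 0.507 to 0.539 from limma. The size of the median rested on the WT arrays. WT day 4 replicate 1 was the lowest of all 8 arrays for 38 of 40 genes, and the median was 0.28 without it and 0.94 without WT day 4 replicate 2.

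**Figure D4:**
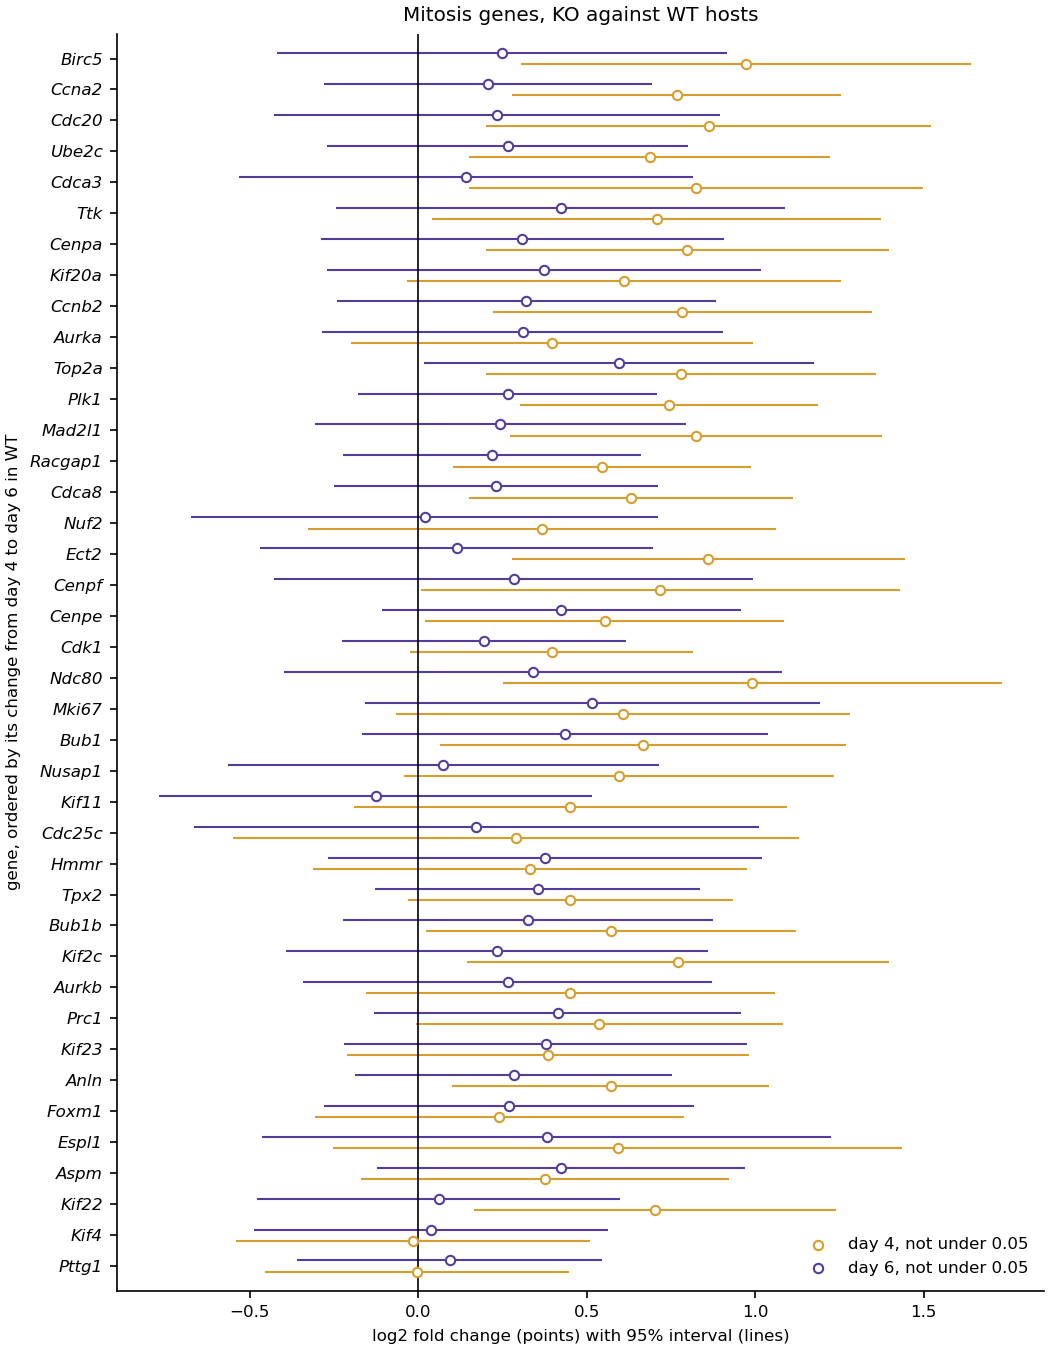
Log2 fold change (x axis) of the 40 mitosis genes in KO against WT hosts, at day 4 (yellow) and day 6 (purple), with lines for the 95% interval of limma and genes in the order of the day comparison. Open points mark genes that did not pass, which is all of them. Most day 4 points lie to the right of the day 6 points of the same gene.

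At day 6 the differences were smaller. The mean was higher in KO for 39 of 40 genes, with a median of 0.27 (1.20-fold), against -0.01 over all genes. No gene passed in limma's test (0 of 40, against 0.00771% of all genes upwards) or in the methods' t-test. At an unadjusted p under 0.05, 1 gene was higher in KO by limma, against 2.34% of all genes, and 0 by the methods' t-test, against 5.9% of all genes in either direction. That gene was Top2a, with 0.60 (95% interval 0.02 to 1.17, adjusted p = 0.784), or 0.28 with the mean of its probe sets. Mki67 had 0.52, Aspm 0.43, Cenpe 0.42 and Prc1 0.41 (adjusted p from 0.833 to 0.834 from limma). Kif11 was the only gene with the lower mean in KO, at -0.13 (95% interval -0.77 to 0.52). In 10 of 40 genes both KO arrays lay above both WT arrays, against 16.1% of all genes. These were Bub1, Bub1b, Cenpe, Kif20a, Tpx2, Aspm, Prc1, Top2a, Mki67 and Anln.

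The median rested on the WT day 6 arrays. WT day 6 replicate 2 was the lowest of the day 6 arrays for 37 of 40 genes, and WT day 6 replicate 1 the highest of all 8 for 19. The median log2 fold change was -0.03 without WT day 6 replicate 2 and 0.64 without WT day 6 replicate 1. Aspm turned to -0.01 and Kif11 to 0.02 when all probe sets of a gene were averaged.

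Over both days, all 40 genes had the higher mean in KO, with a median of 0.48 (1.39-fold), against 0.00 over all genes. In limma's test 0 of 40 passed, against 0.0231% of all genes upwards, and 26 of 40 were higher at an unadjusted p under 0.05, against 3.91% of all genes. Top2a had the smallest p, with 0.69 (95% interval 0.28 to 1.10, adjusted p = 0.383 from limma), but 0.19 with the mean of its probe sets. The next were Plk1 at 0.50, Ccna2 at 0.49, Ccnb2 at 0.55 and Mad2l1 at 0.53, with adjusted p from 0.405 to 0.455 from limma. Kif4 had the smallest value, 0.01. The median was 0.30 without WT day 4 replicate 1.

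The difference between the 2 KO effects was tested on its own. It was negative, meaning a smaller KO excess at day 6 than at day 4 and equally a smaller rise with time in KO than in WT, for 35 of 40 genes, with a median of -0.29 on the log2 scale. In limma's test 0 of 40 passed, against 0% of all genes upwards, and 0 had an unadjusted p under 0.05, against 4.38% of all genes in either direction. Ect2 had the most negative value, -0.75 (95% interval -1.57 to 0.08, adjusted p = 0.995 from limma), and Pttg1 the highest, 0.10 (95% interval -0.54 to 0.73). A difference between the time courses of the genotypes was thus not detectable with these 8 arrays. Leaving out replicate 2 of WT gave a median of -0.63 for the day 6 array and -0.61 for the day 4 array, and leaving out replicate 1 gave -0.03 and -0.04. The methods' t-test was not run on this difference or over both days.

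Across the 4 groups, the means of 36 of 40 genes were in the order WT day 4, KO day 4, WT day 6 and KO day 6 from low to high, which held for 14.3% of all genes. For 27 of 40 genes both WT day 4 arrays lay below both KO day 4 arrays and these below all day 6 arrays, against 6.3% of all genes. The comparisons share arrays, so these orders are no separate evidence. Relative to each gene's mean over the 8 arrays, the median log2 signal of the 40 genes was -1.15 and -0.59 in WT day 4, -0.19 and -0.30 in KO day 4, 0.74 and 0.09 in WT day 6 and 0.67 and 0.74 in KO day 6. The 2 KO arrays of a day were closer to each other than the 2 WT arrays were.

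The tissue of the arrays also differed in ways other than genotype. The skeletal muscle list, 11 tested genes of 12, had a median of 5.15 in WT day 4 replicate 2, 3.54 in KO day 6 replicate 2 and 1.62 in KO day 4 replicate 2, and between -2.76 and -1.69 in the other 5 arrays. The defining marker Acta1 ranged from 336.4 to 34992. The 2 arrays richest in muscle were WT day 4 replicate 2 and KO day 6 replicate 2. Without them, the medians of the mitosis genes for day 6 against day 4 were 1.56 in WT and 0.90 in KO. The cornified epidermis list, 5 tested genes of 10, stood at 3.59 in KO day 6 replicate 2 and between -0.92 and -0.20 elsewhere. The epithelial carcinoma list lay at 0.69 in that array and between -0.48 and -0.05 in the others. The endothelial list had medians for day 6 against day 4 of 0.89 in WT, with 2 of 8 genes called, and 0.44 in KO, with 0 called. For KO against WT at day 4 it had 0.40, with 8 of 8 genes higher, and at day 6 it had -0.19. The macrophage list had -0.56 at day 4, with 11 of 12 genes lower in KO, and -0.35 at day 6. The neutrophil list had 0.71 between genotypes at day 6, where 6 of 6 genes were higher in KO, and 0.49 in WT and 1.37 in KO for day 6 against day 4. No gene of these 3 lists was called for KO against WT at either day in limma's test. Xist, expressed from the inactive X chromosome of females, had 5579 to 7121 in the day 6 arrays and 44.6 to 142.1 in the day 4 arrays, while the Y-linked Eif2s3y had 10.2 to 33.0 and 798.1 to 1177. The part of these differences in the results for the mitosis genes was not tested, and the sex of the tissue and the day cannot be told apart. Of the deleted receptors, Tlr7 had 382.9 to 673.4 in WT and 10.8 to 80.1 in KO, Tlr3 had 543.9 to 811.1 and 224.0 to 427.2, and Tlr9 had 20.8 to 137.6 and 84.2 to 128.5. The place of these probe sets relative to the deleted parts was not known here, and one outside them checks nothing.

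**Figure D5:**
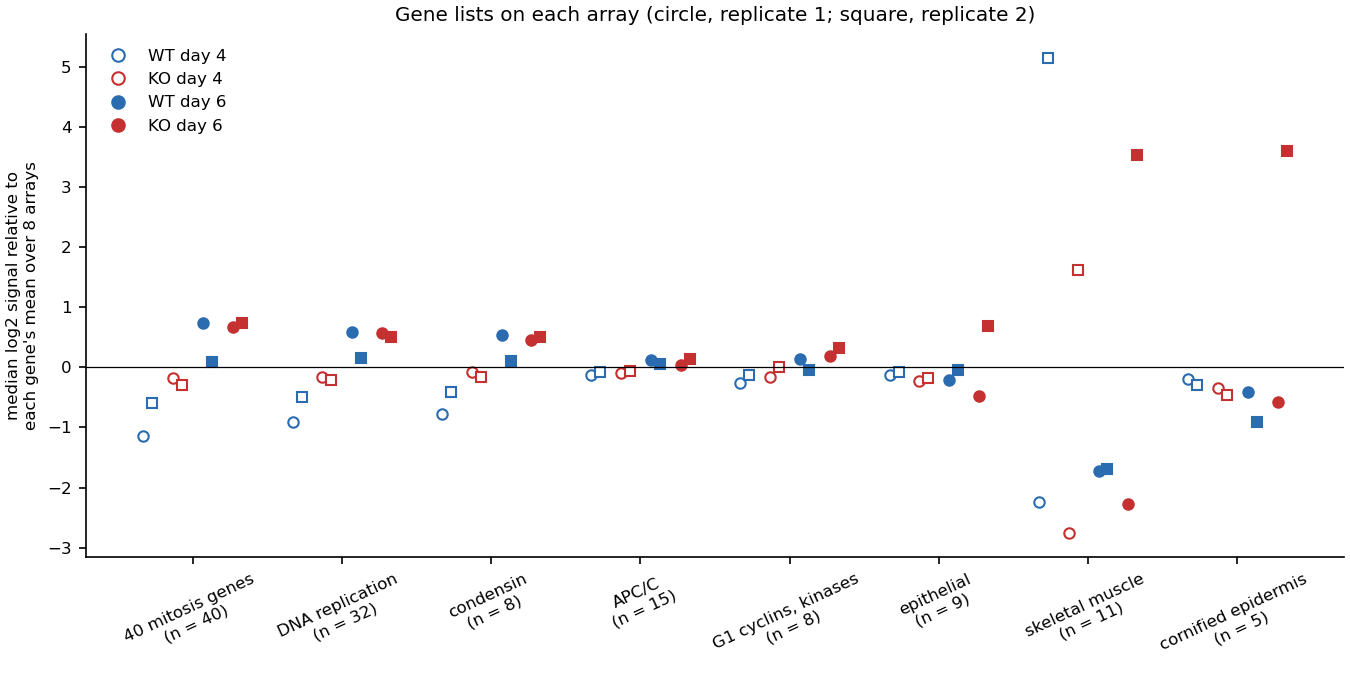
Median log2 signal of a gene list relative to each gene's mean over the 8 arrays (y axis), on each array, for the 40 mitosis genes and 7 other lists (x axis, n tested genes). The mitosis and DNA replication lists step upwards from WT day 4 to day 6, while the muscle list is high in 3 arrays and the cornified list in KO day 6 replicate 2.

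The other genes of the cell cycle did not move as one. Of 32 tested DNA replication genes, 23 rose from day 4 to day 6 in WT (median 1.13) and 12 in KO (median 0.77). Tk1, thymidine kinase, and Mcm5, a subunit of the replicative helicase, rose by 1.98 and 1.93 in WT, and the sliding clamp gene Pcna rose by 0.65. Of 38 other kinesins and spindle genes, 18 rose in WT (median 1.03) and 12 in KO (median 0.77). Kpna2, an importin that binds Tpx2, rose by 0.97 and 0.70, and the called genes of largest change in WT were Kif20b and Tacc3, at 1.80 and 1.55. Of 27 other kinetochore genes, 10 rose in WT (median 0.97) and Spc25, a partner of Ndc80, alone in KO (median 0.43). Cenpk and Spc24 rose by 1.71 and 1.67 in WT, whereas Zwint, with the highest signal of the list, had -0.01 in WT and 0.22 in KO. The condensins, which compact chromosomes, had 5 of 8 genes rising in WT and 2 of 8, Smc2 and Smc4, in KO. Of 9 other checkpoint genes, 3 rose in each genotype, among them Bub3, by 0.67 in WT and 0.79 in KO, and Trip13, which disassembles checkpoint complexes, by 1.57 and 1.17.

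In other parts of the machinery fewer genes passed. Of 15 genes of the APC/C and its activator, 2 rose in WT and 1 in KO, with medians of 0.18 and 0.16. The 2 in WT were Ube2s, the partner of Ube2c, at 0.55, and Fbxo5, an inhibitor of the APC/C, at 1.18. The core subunit Anapc5 had 0.07 in WT. Of 12 tested cohesin genes 3 rose in WT, namely Cdca5 (1.80), Sgo1 (1.66) and Sgo2a (1.47), and the median was 0.10. These 3 encode protectors of cohesion rather than the ring, whose subunit gene Rad21 had 0.31. Of 18 transcription factors of the mitotic program, 3 rose in WT and 2 in KO, with medians of 0.41 and 0.36. E2f8, a late repressor of E2F targets, rose by 1.46 in WT, and Rbl1, encoding p107 of the DREAM complex, by 1.05 in WT and 0.73 in KO. The G1 cyclins and kinases had medians of 0.30 and 0.28. There Ccne1, encoding cyclin E1, rose by 1.45 and 1.15, while Ccnd1, encoding cyclin D1, had 0.27 and 0.19. Of 22 inhibitory kinases, phosphatases and CDK inhibitors, 5 rose in WT and 3 rose and 2 fell in KO. The 2 that fell were Cdkn1b, encoding the CDK inhibitor p27, by 1.16 and Wee1, the kinase that holds Cdk1 inactive, by 0.62.

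In KO against WT tumours, 0 genes of any of these 10 lists passed at day 4 or at day 6 in limma's test. Medians at day 4 were 0.57 for the condensins, 0.47 for the DNA replication genes, 0.41 for the other spindle genes and 0.38 for the other kinetochore genes, and 0.06 for the APC/C. At day 6 the same lists had 0.15, 0.18, 0.18, -0.01 and 0.03. The other checkpoint genes had 0.22 at day 4 and 0.34 at day 6. At day 4 the G1 list had 0.18, the transcription factors 0.15, the inhibitory list 0.13 and cohesin 0.07. At day 6 these had 0.09, 0.10, -0.05 and 0.09. As with the mitosis genes, the lists were described with no test over the list.

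The promoter elements were also counted over all genes that rose. Among 10454 tested genes with a promoter, 5.64% held both a CHR and an NF-Y box. Among the 439 of them that rose from day 4 to day 6 in WT, 13.9% held both, and 10.4% of the 414 that remained without the mitosis genes. In KO the shares were 9.78% of 368 genes and 7.56% of 357. Of the genes that fell, 4.27% in WT and 3.97% in KO held both. Counted singly, a CHR was held by 14.4% of tested genes and an NF-Y box by 42.5%. Of the genes that rose, 19.6% in WT and 17.1% in KO held a CHR, or 16.2% and 15.1% without the mitosis genes. An NF-Y box was held by 50.6% and 42.7%, or 48.8% and 41.2% without them. Of the genes that fell, 11.6% and 12.7% held a CHR, and 48.2% and 49.2% an NF-Y box. A match of letters is a description of the sequence, not of binding.

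The other probe sets of the mitosis genes gave the same direction more often than the same size. For 25 genes, 40 other probe sets reached the limit for dim probe sets. Of these 40, 35 were positive for day 6 against day 4 in WT (median 1.16) and 38 in KO (median 0.65). The 5 negative ones in WT were both of Pttg1 and 1 each of Cdca3, Nusap1 and Top2a. For KO against WT, 28 were positive at day 4 (median 0.53) and 26 at day 6 (median 0.13).

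When all probe sets of a gene were averaged, dim ones included, 15 of the 28 genes called in WT and 4 of the 14 called in KO still passed. The 4 in KO were Ccna2, Cdk1, Plk1 and Ube2c. Of the 13 lost in WT, the change was over 1.5 times smaller for 8, namely Aurka (0.85), Bub1b (0.69), Cdca3 (0.28), Cenpa (0.69), Nusap1 (0.51), Racgap1 (0.85), Top2a (0.20) and Ttk (0.55). The other 5 were Cdc20, Cenpf, Mki67, Nuf2 and Tpx2, of which Mki67 (1.28) and Nuf2 (1.34) had an unchanged log2 fold change. Averaging altered the values of other genes too, and with them the adjustment over all genes, so a gene can be lost without a change of its own. Of the 10 lost in KO, the change was over 1.5 times smaller for Aurka (0.36), Hmmr (0.33) and Top2a (0.39). The others were Birc5, Cdca8, Cenpe, Kif20a, Racgap1, Tpx2 and Ttk. Of these, Birc5 (1.29) and Kif20a (1.21) had an unchanged log2 fold change, and Cdca8 (1.01) and Ttk (1.46) a larger one.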

How the data were processed

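Tumour RNA was hybridised to 8 Affymetrix mouse arrays of 45101 probe sets. The authors deposited 1 linear signal intensity per probe set, and the submitters' processing notes name MAS5 without a version. Every array had a 2% trimmed mean of 1000, as global scaling gives, and median signals ran from 133.2 to 175.2. The platform annotation gave 1 symbol to 34958 probe sets, several to 932 and none to 9211. Probe sets with several symbols were not used. The 18194 genes with a probe set of 1 symbol were represented by the brightest of these. The 12976 at or above the 40th percentile of mean log2 signal (taken over all probe sets) were tested. Values were log2(signal + 16), fitted as 4 groups with limma 3.58.1 in R 4.3.3, with 4 residual degrees of freedom, a trend on the mean signal and Benjamini-Hochberg adjustment over all tested genes. Calls were made at an adjusted p under 0.05, and intervals are 95%. The fit was tested on simulated data. The number of arrays limits the precision.

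The mitosis genes, their roles and the other lists were chosen with earlier results of these data known. Values of every array are given for the 2 genes of each role with the highest mean signal and the 5 called genes of smallest p in each comparison, and the highest and lowest gene of each comparison is named. Of other lists, the 2 genes of highest signal and the 2 called genes of largest change could be named. Spc25, Sgo2a, Ube2s and Wee1 complete counts of few genes. They were named after seeing their values, as were the muscle, epidermal, sex-linked and Tlr genes. Changed 1 at a time were the normalization (quantile, or centring each array on its median), the pseudocount (1 or 64), the filter (none, or the 60th percentile), the summary of a gene (its averaged probe sets), the fit (compared groups alone, no trend, a replicate block), the arrays (each left out) and the test (the methods' t-test). Leaving out the 2 arrays richest in muscle and crossing the block were chosen after seeing the data.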

Additional observations from a re-analysis of the deposited data

How the results depend on the processing

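The direction of the day comparisons held under the alternatives run, with 38 to 40 of the tested mitosis genes higher at day 6 in each genotype, while the number called depended on the settings. For day 6 against day 4 in WT, the count of 28 was 18 with the mean of all probe sets and 0 with the compared groups alone, with no trend or with the methods' t-test. Leaving out single arrays gave 0 to 35 called and medians of 0.99 to 1.61. For day 6 against day 4 in KO, the count of 14 was 31 with centring on the median (with 1342 of all genes, against 809), 9 with no filter, 4 with the mean of all probe sets, 33 with the compared groups alone (1747 of all genes), 0 with no trend, 0 with the methods' t-test, and 3 without the 2 arrays richest in muscle. Leaving out single arrays gave 0 to 28 called. Where this left 1 array in a group, that array was assumed to vary like the other groups. Centring on the median moved the median of all genes by 0.18 in WT and 0.17 in KO for the day comparisons, and the mitosis genes stood at 1.29 and 0.95 above that median with and without it.

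For KO against WT, the count of genes called was 0 under every alternative run. Without single arrays the median at day 6 ranged from -0.027 to 0.64 and turned negative without WT day 6 replicate 2. At day 4 it ranged from 0.28 to 0.94, and it was 0.94 without the 2 arrays richest in muscle. Over both days it ranged from 0.30 to 0.61. The median difference between the KO effects ranged from -0.63 to -0.034, and was -0.66 without those 2 arrays. Single genes near 0 turned sign. At day 6 these were Aspm at -0.0051 and Kif11 at 0.022 with the mean of all probe sets, and Kif11 ranged from -0.37 to 0.12 without single arrays. Kif4 at day 4 was 0.00220 with quantile normalization, 0.064 with centring, 0.24 without the 2 arrays richest in muscle, and -0.27 to 0.24 without single arrays, and over both days it ranged from -0.12 to 0.14. Without single arrays Pttg1 in WT ranged from -0.56 to 0.00158 and Kif22 in KO from -0.15 to 0.26.

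Same-numbered arrays deviated together with correlations of -0.03 for KO against WT at day 6, 0.27 at day 4, -0.12 for the days in WT and 0.21 for the days in KO, and the labels do not say what a number shares. With the replicate block, 19 mitosis genes were called in WT (463 of all genes) and 2 in KO (325 of all genes). In the comparisons of KO with WT, 0 mitosis genes were called with the block. With the numbers of WT day 6 crossed in the block, a choice made after seeing the data, 34 were called in WT (1014 of all genes).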
